A study of Mus musculus with 14 samples.

Results

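Tcf7l2, Lef1, Prkcd, Slc17a6, Rgs16, Zic1, Synpo2 and Ramp3 are genes known for high expression in the thalamus, a structure that lies next to the hippocampus, and they were followed library by library through RNA that the labels call hippocampal. The 8 genes were chosen from their measured values in these same libraries, so their levels and fold changes are given here as a description, without p-values. They are 8 of the 39017 genes in the count table, and all 8 passed the filter on low counts, as did 21298 genes in all. Pvalb, which encodes the calcium-binding protein parvalbumin (PV), served as the reference for the cells that were targeted.

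All mice were males on a C57BL/6 background that carried a Cre-dependent EGFP-L10a and PV-Cre (EGFP-L10a+; PV-Cre+), so that every cell with PV-Cre activity made ribosomes tagged with EGFP, wherever in the brain it lay. Behavioral experiments began at 8 to 12 weeks of age, and the defeated mice went through chronic social defeat stress (CSDS) for 10 days, after which a social interaction test separated resilient from susceptible mice. Both hippocampi of 1 mouse made 1 sample, and translating ribosome affinity purification (TRAP), in which tagged ribosomes are immunoprecipitated with the mRNA they carry, was done on 4 non-defeated (sample numbers 1, 6, 9 and 11), 4 resilient (3, 5, 7 and 8) and 3 susceptible mice (2, 4 and 10). Total RNA taken before TRAP from 3 non-defeated samples (12, 13 and 14) served as input, and no input sample shares a number with a TRAP sample. Libraries are named below by group and sample number. Gene counts of a library summed to 64110214 to 94726962 reads, and the 8 genes had between 64 and 28069 reads in a library. Levels are CPM, counts scaled to the size of each library and to edgeR's TMM factors, which were 0.945 to 0.995 in TRAP and 1.10 to 1.12 in input. No library was a copy of another of its group, since even the closest replicates gave 13.97 as their chi-square over the degrees of freedom.

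Relay neurons of the thalamus carry sensory and motor signals to the cortex and use glutamate, which they load into vesicles with VGLUT2, whereas pyramidal and granule cells of the hippocampus use VGLUT1. Tcf7l2 is a selector gene of postmitotic thalamic relay neurons, and it and Lef1 encode related nuclear partners of beta-catenin at the end of the Wnt pathway. The reticular nucleus, a sheet of GABAergic neurons around the relay nuclei, is a different population: many of its neurons make parvalbumin. None of the 8 genes belongs to the thalamus alone. Lef1 is also made by brain endothelial cells, Synpo2 by smooth muscle cells, and Zic1 by meningeal cells and several other cell types.

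The DNA upstream of the genes is shown because Tcf7l2 and Lef1, themselves in the group, bind sequences with the core CTTTG. RefSeq start sites on GRCm38.p6 gave 14 windows of 250 bases upstream of the 8 genes, all of which matched by symbol. CTTTG or its reverse complement CAAAG was present in 10 of the 14 windows and in 48.6% of all 32851 such windows of the genome. By gene it was in a window of 5 of the 8, and Lef1 had 4 of the 14 windows, of which 2 overlap by 224 bases. The window upstream of the first start site listed is printed 5′ to 3′ on the strand of the gene for 4 genes with a match and for Ramp3, whose levels set it apart and which had none, with the core in capitals.
Tcf7l2 (chr19:55741560-55741809, plus strand): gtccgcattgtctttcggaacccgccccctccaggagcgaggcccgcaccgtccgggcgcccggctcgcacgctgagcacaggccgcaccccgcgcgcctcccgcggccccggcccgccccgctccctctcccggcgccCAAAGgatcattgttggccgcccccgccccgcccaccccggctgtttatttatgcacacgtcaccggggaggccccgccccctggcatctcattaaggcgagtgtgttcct
Lef1 (chr3:131110047-131110296, plus strand): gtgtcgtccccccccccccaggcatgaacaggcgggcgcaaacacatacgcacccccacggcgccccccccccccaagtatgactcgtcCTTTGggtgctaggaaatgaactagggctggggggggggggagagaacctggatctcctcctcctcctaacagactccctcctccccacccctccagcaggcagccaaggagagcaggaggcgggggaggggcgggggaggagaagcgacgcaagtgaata
Prkcd (chr14:30626209-30626458, minus strand): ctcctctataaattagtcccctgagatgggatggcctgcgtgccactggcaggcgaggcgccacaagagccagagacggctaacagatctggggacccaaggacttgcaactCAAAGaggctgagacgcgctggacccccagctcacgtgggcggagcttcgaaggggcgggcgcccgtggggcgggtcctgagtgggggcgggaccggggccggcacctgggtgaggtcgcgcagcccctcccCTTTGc
Synpo2 (chr3:123236150-123236399, minus strand): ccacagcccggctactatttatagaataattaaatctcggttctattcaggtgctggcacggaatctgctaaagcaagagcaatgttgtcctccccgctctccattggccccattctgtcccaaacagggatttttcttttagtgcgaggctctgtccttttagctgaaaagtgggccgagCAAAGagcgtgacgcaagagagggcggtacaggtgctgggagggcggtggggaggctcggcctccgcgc
Ramp3 (chr11:6658283-6658532, plus strand): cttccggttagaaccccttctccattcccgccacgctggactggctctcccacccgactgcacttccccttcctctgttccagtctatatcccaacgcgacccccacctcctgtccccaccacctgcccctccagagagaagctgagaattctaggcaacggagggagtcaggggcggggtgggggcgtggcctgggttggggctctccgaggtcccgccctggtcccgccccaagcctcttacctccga
The match is a short word found near many genes. It describes these letters and was not tested as a binding site.

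Tcf7l2 (ENSMUSG00000024985, mm10 chromosome 19, 55741820 to 55933654, plus strand) had 3.44, 3.32, 66.8 and 33.0 CPM in non-defeated libraries 1, 6, 9 and 11 and 2.95, 4.91, 132 and 5.02 CPM in resilient libraries 3, 5, 7 and 8. In susceptible libraries 2, 4 and 10 it had 5.62, 6.01 and 19.4 CPM, and in input libraries 12, 13 and 14 it had 10.95, 7.84 and 74.2 CPM. One or more libraries of every group stood far above the rest of their group: resilient 7, non-defeated 9 and 11, susceptible 10 and input 14. The ranges of all 4 groups overlapped, with means of 26.7 ± 30.2 CPM (SD, n = 4) for non-defeated mice, 36.3 ± 63.9 (SD, n = 4) for resilient mice, 10.3 ± 7.83 (SD, n = 3) for susceptible mice and 31.0 ± 37.4 (SD, n = 3) for input. Resilient library 7 had 24.8 times the median of the other 10 TRAP libraries. In bulk RNA, fewer cells of a type and less RNA per cell cannot be told apart, and this holds for each level below.

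Lef1 (ENSMUSG00000027985, chromosome 3, 131110471 to 131224356, plus strand), the second of these Wnt pathway factors, was lower in level and followed the same libraries. It had 1.85, 1.84, 13.98 and 9.33 CPM in non-defeated libraries 1, 6, 9 and 11 and 2.59, 2.95, 28.8 and 5.24 CPM in resilient libraries 3, 5, 7 and 8. Susceptible libraries 2, 4 and 10 had 3.59, 4.22 and 5.93 CPM, and in input libraries 12, 13 and 14 it had 3.03, 2.97 and 17.3 CPM. Resilient 8 and susceptible 10 lay close together, so susceptible 10 stood out less than it did in Tcf7l2. The 8 endothelial genes, whose cells also make Lef1, summed to 11.9 to 20.5 CPM in non-defeated TRAP, 20.6 to 53.0 in resilient TRAP, 30.4 to 43.9 in susceptible TRAP and 11.1 to 14.1 in input. Their highest library was resilient 8, not resilient 7, and their part in the level of Lef1 was not tested.

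Slc17a6 (ENSMUSG00000030500, chromosome 7, 51622006 to 51671119, plus strand) encodes VGLUT2. It had 4.96, 4.27, 23.8 and 13.6 CPM in non-defeated libraries 1, 6, 9 and 11 and 4.12, 4.21, 40.9 and 5.24 CPM in resilient libraries 3, 5, 7 and 8. In susceptible libraries 2, 4 and 10 it had 4.85, 5.70 and 8.37 CPM, and in input libraries 12, 13 and 14 it had 7.55, 9.10 and 23.9 CPM. The same 4 TRAP libraries were highest as for Tcf7l2 and in the same order, and input 14 was again the highest input. Slc17a7, which encodes VGLUT1 of hippocampal excitatory neurons, had no such pattern: it had 547 CPM in input 14 against 661 and 664 in input 12 and 13, and 189 CPM in resilient 7 within a TRAP range of 115 to 227.

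Prkcd (ENSMUSG00000021948, chromosome 14, 30595354 to 30626210, minus strand) encodes protein kinase C delta. It had 18.8, 15.2, 197 and 129.8 CPM in non-defeated libraries 1, 6, 9 and 11 and 11.5, 30.2, 340.2 and 26.9 CPM in resilient libraries 3, 5, 7 and 8. Among susceptible libraries, numbers 2, 4 and 10 had 16.5, 20.2 and 77.2 CPM, and in input libraries 12, 13 and 14 it had 58.1, 38.1 and 180.4 CPM. The same 5 libraries stood apart, and input 12 and 13 lay above all 7 TRAP libraries that did not stand apart. The related kinases of the hippocampus did not follow: Prkca had 54.2 to 93.2 CPM over the 11 TRAP libraries and its value in resilient 7, 55.3 CPM, was close to the lowest.

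Rgs16 (ENSMUSG00000026475, chromosome 1, 153740349 to 153745468, plus strand) encodes a protein that speeds the shut-off of G proteins. It had 4.74, 7.43, 19.6 and 11.7 CPM in non-defeated libraries 1, 6, 9 and 11 and 8.45, 10.4, 33.1 and 5.38 CPM in resilient libraries 3, 5, 7 and 8. In susceptible libraries 2, 4 and 10 it had 6.29, 6.89 and 9.59 CPM, and in input libraries 12, 13 and 14 it had 6.03, 7.12 and 34.99 CPM. Resilient 7, non-defeated 9 and 11 and input 14 were again highest in their groups, but resilient 5 lay above susceptible 10. Gm28513, an antisense gene, shares exon sequence with Rgs16, and reads of the pair cannot be told apart because the library kit does not mark the strand.

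Synpo2 (ENSMUSG00000050315, chromosome 3, 123076519 to 123236149, minus strand) encodes synaptopodin 2, an actin-binding protein. It had 0.99, 0.857, 22.4 and 17.5 CPM in non-defeated libraries 1, 6, 9 and 11 and 1.16, 2.09, 38.0 and 1.57 CPM in resilient libraries 3, 5, 7 and 8. The susceptible libraries 2, 4 and 10 had 0.880, 2.07 and 9.54 CPM, and in input libraries 12, 13 and 14 it had 1.91, 1.90 and 23.7 CPM. Synpo2 separated the libraries most cleanly of the 8 genes: nothing lay between 2.09 CPM in resilient 5 and 9.54 CPM in susceptible 10. A threshold of 5 CPM in Synpo2 was therefore used, after the values were seen, to name the 5 libraries that were left out in an alternative fit. Smooth muscle and pericyte genes, which mark other cells that make Synpo2, did not follow the libraries: the 9 genes summed to 41.3 CPM in non-defeated 9 and 60.3 CPM in resilient 7 within a TRAP range of 41.3 to 85.2.

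**Figure D1:**
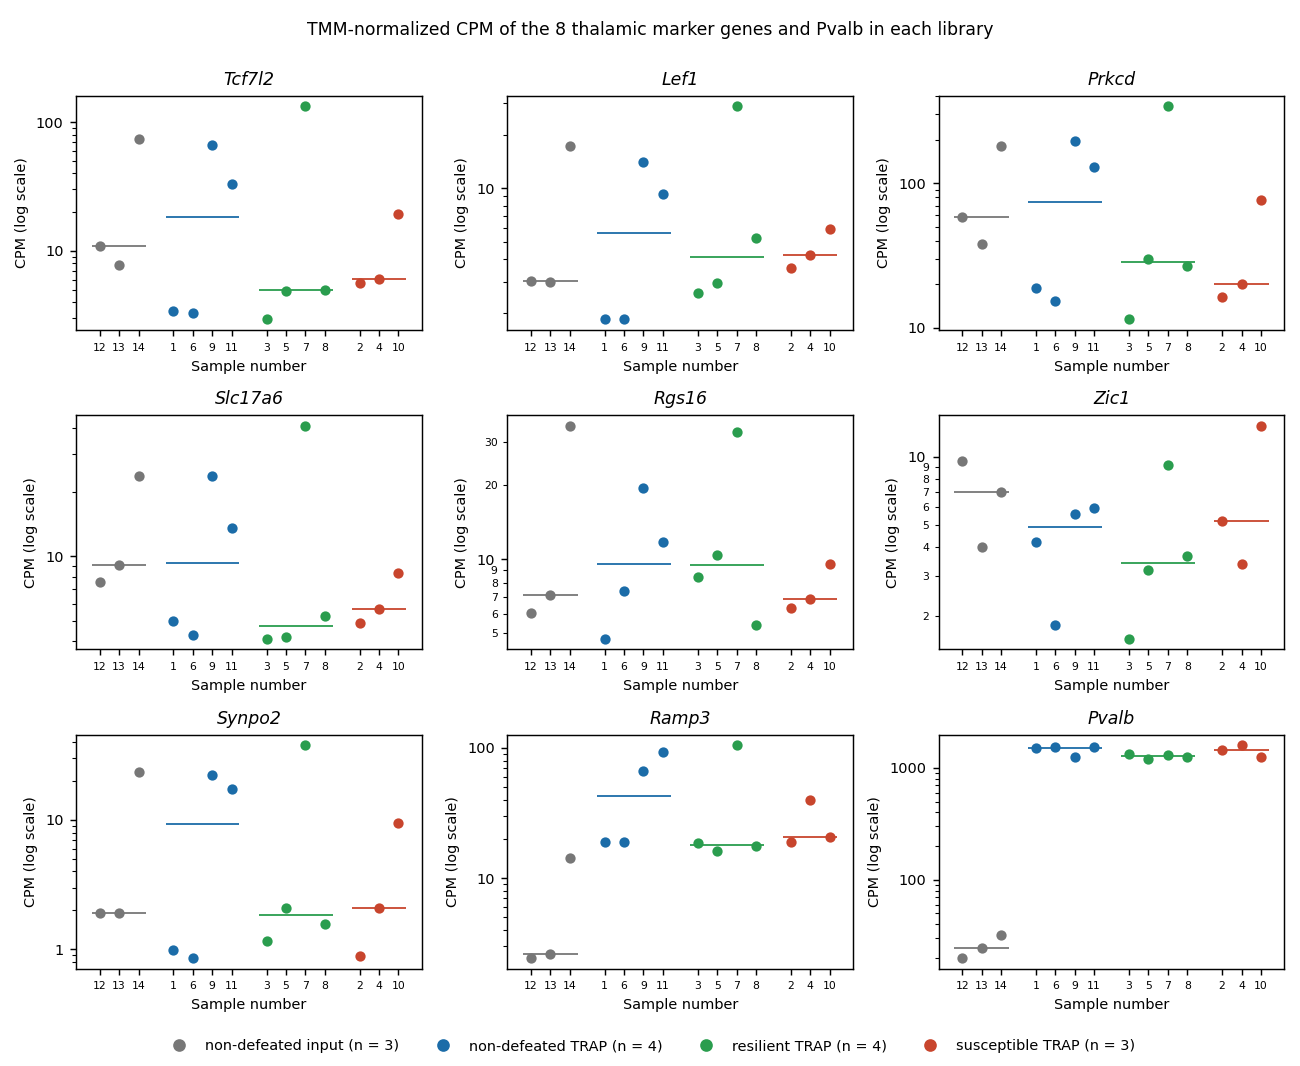
CPM of the 8 thalamic marker genes and of Pvalb in each library, on log axes, with 1 point per library over its sample number, colored by group, and the group median as a line. In 7 of the 8 panels, all but Zic1, libraries 7, 9 and 11 are the 3 highest TRAP points and 14 is the highest input point, while Pvalb stays between 1208 and 1600 CPM in TRAP.

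Pvalb (ENSMUSG00000005716, chromosome 15, 78191114 to 78206400, minus strand) had 1507, 1548, 1265 and 1538 CPM in non-defeated libraries 1, 6, 9 and 11 and 1332, 1208, 1304 and 1250 CPM in resilient libraries 3, 5, 7 and 8. In susceptible libraries 2, 4 and 10 it had 1443, 1600 and 1241 CPM, and in input libraries 12, 13 and 14 it had 20.02, 24.4 and 31.9 CPM. The libraries that stood apart in the thalamic genes lay inside the range of the other TRAP libraries in Pvalb, and non-defeated 9 was the lowest of its group. Set against Pvalb in the same library, the 7 genes other than Ramp3 summed to 2.59%, 2.25%, 27.6% and 14.4% of Pvalb in non-defeated libraries 1, 6, 9 and 11. The sum was 2.43%, 4.80%, 47.7% and 4.24% in resilient libraries 3, 5, 7 and 8 and 2.98%, 3.03% and 11.6% in susceptible libraries 2, 4 and 10. In input, where Pvalb is rare, the sum was 485%, 292% and 1130% of Pvalb in libraries 12, 13 and 14.

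**Figure D2:**
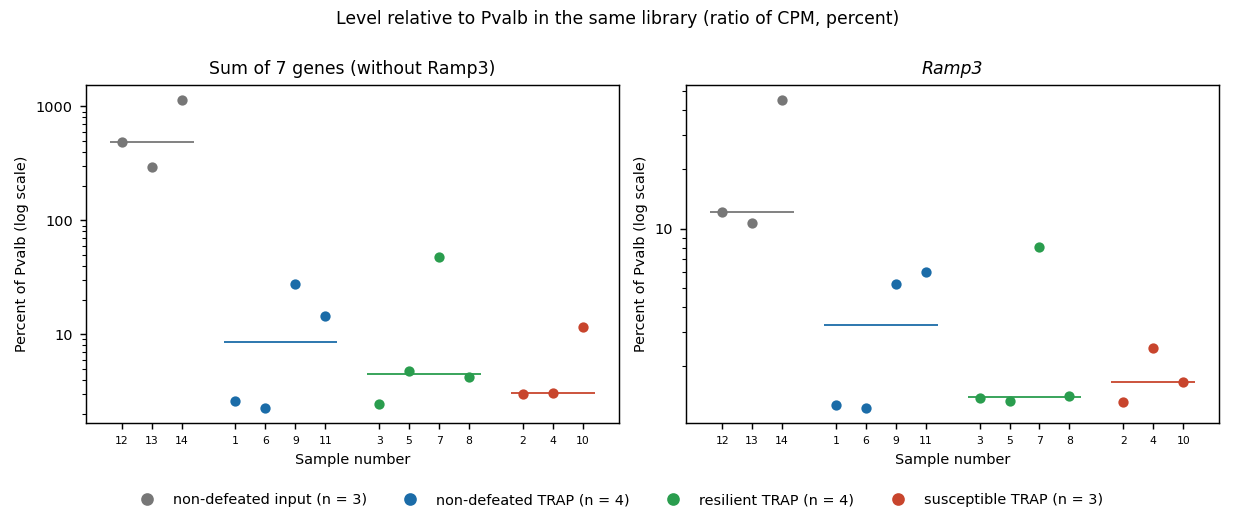
Summed CPM of the 7 genes other than Ramp3 (left) and CPM of Ramp3 (right) as a percent of Pvalb CPM in the same library, on log axes, with 1 point per library over its sample number and the group median as a line. Within TRAP the sum runs from 2.25% to 47.7% of Pvalb, and input lies above TRAP in both panels.

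Ramp3 (ENSMUSG00000041046, chromosome 11, 6658521 to 6677475, plus strand) encodes a membrane protein that sets which peptide hormones the calcitonin family of receptors recognizes. It had 19.1, 19.1, 66.5 and 92.6 CPM in non-defeated libraries 1, 6, 9 and 11 and 18.6, 16.0, 105 and 17.6 CPM in resilient libraries 3, 5, 7 and 8. Susceptible libraries 2, 4 and 10 had 19.1, 39.7 and 20.6 CPM, and in input libraries 12, 13 and 14 it had 2.44, 2.62 and 14.4 CPM. Ramp3 differed from the other genes in 2 ways: every TRAP library lay above every input library, and susceptible 4, not susceptible 10, was the highest of its group. Its fitted log2 fold change in non-defeated TRAP against input was 2.92 (standard error 0.88), where Pvalb had 5.85 (standard error 0.17, adjusted p = 7.89e-11 in edgeR's quasi-likelihood test with Benjamini-Hochberg adjustment). The related Ramp1 fell by 1.85 on the log2 scale in the same contrast (adjusted p = 2.20e-07 in the same edgeR test), and Ramp2 rose by 0.40 (adjusted p = 0.00297).

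Gm11978, a pseudogene on the opposite strand, overlaps exons of Ramp3, and reads of the pair cannot be told apart. Per length of exon, as RPKM (CPM divided by the exon length in kilobases), Ramp3 had the highest level of the 8 genes in non-defeated TRAP, 35.7 ± 26.5 RPKM (SD, n = 4). It was followed by Prkcd with 16.3 ± 16.0, Rgs16 with 4.64 ± 2.77, Tcf7l2 with 3.04 ± 3.44, Slc17a6 with 2.16 ± 1.69, Synpo2 with 0.796 ± 0.852, Zic1 with 0.774 ± 0.331 and Lef1 with 0.768 ± 0.680 RPKM. No 2 neighbors in this order differed by more than the larger of their SDs, so the order itself is loose. Pvalb had 1410 ± 129 RPKM in the same libraries.

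Markers of the thalamic reticular nucleus, a list of 5 genes, showed the libraries that Ramp3 singled out. Six3, a homeobox transcription factor, had 5.20, 1.45, 123 and 183 CPM in non-defeated libraries 1, 6, 9 and 11 and 2.22, 3.28, 211 and 3.0 CPM in resilient libraries 3, 5, 7 and 8. It had 7.16, 40.9 and 8.05 CPM in susceptible libraries 2, 4 and 10 and 8.07, 2.53 and 6.15 CPM in input libraries 12, 13 and 14. Susceptible 4 was again high and susceptible 10 not, and input 14, which was high in the relay genes, was not high in Six3. The 4 highest TRAP libraries were resilient 7, non-defeated 11 and 9 and susceptible 4 for Ramp3 and for 3 of the 5 reticular genes, Six3, Isl1 and Spp1, against 0.775% of all genes tested.

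Isl1, which encodes another homeobox factor, had 37.9 CPM in resilient 7, 31.2 in non-defeated 11, 16.9 in non-defeated 9 and 8.12 in susceptible 4, and 0.920 to 4.64 CPM in the other 10 libraries. Spp1, which encodes the secreted protein osteopontin, had 55.3, 33.9, 23.3 and 10.1 CPM in the same 4 libraries and 2.03 to 6.54 in the others. Both are expressed in other brain regions as well. Ecel1 and Cacna1i, which encode a membrane peptidase and a T-type calcium channel, did not share that order of 4, although among TRAP libraries Ecel1 was highest in resilient 7 with 8.36 CPM. Over all libraries Ecel1 was highest in input 12 with 9.98 CPM. In non-defeated TRAP against input 1 of the 5 genes passed an adjusted p under 0.05, Cacna1i (log2 fold change 0.77, standard error 0.25, with an adjusted p of 0.0159 in edgeR's quasi-likelihood test). Six3 had a fitted value of 3.80 (standard error 1.81, adjusted p = 0.0891 in that test), Spp1 2.51 (adjusted p = 0.0643), Isl1 2.36 (adjusted p = 0.123) and Ecel1 -0.48 (adjusted p = 0.503), and in the contrasts between stress groups 0 of 5 passed, 0 of them at an unadjusted p under 0.05.

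Zic1 (ENSMUSG00000032368, chromosome 9, 91358058 to 91365810, minus strand) encodes a zinc finger transcription factor of the thalamus, cerebellum and meninges. It had 4.22, 1.82, 5.61 and 5.98 CPM in non-defeated libraries 1, 6, 9 and 11 and 1.59, 3.19, 9.15 and 3.66 CPM in resilient libraries 3, 5, 7 and 8. In susceptible libraries 2, 4 and 10 it had 5.25, 3.40 and 13.7 CPM, and in input libraries 12, 13 and 14 it had 9.55, 4.04 and 6.98 CPM. Its 4 highest TRAP libraries were those of Tcf7l2, but susceptible 10 came first, and input 12, not input 14, was the highest input. Exons of Zic1 overlap those of Zic4 on the opposite strand, and reads there cannot be assigned to either gene.

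Zic2, Zic4 and Zic5 went the same way: these 3 genes and Zic1 were highest in susceptible 10 among TRAP and in input 12 among input, as were 6 of 6 choroid plexus genes, against 5.74% of all genes tested. Both groups were counted after the values were seen. Ttr, the transthyretin gene of the choroid plexus, had 604 CPM in susceptible 10 and 675 in input 12, and 146 to 404 CPM in the other TRAP libraries. Summed over its list, choroid plexus had 207 to 323 CPM in non-defeated, 169 to 473 in resilient and 440 to 762 in susceptible TRAP and 728 to 835 in input, and its part in the level of Zic1 was not tested. Of the 6 genes, 0 passed an adjusted p under 0.05 in edgeR's test in the stress contrasts, and 3 of 6 had an unadjusted p under 0.05 in susceptible against non-defeated TRAP.

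**Figure D3:**
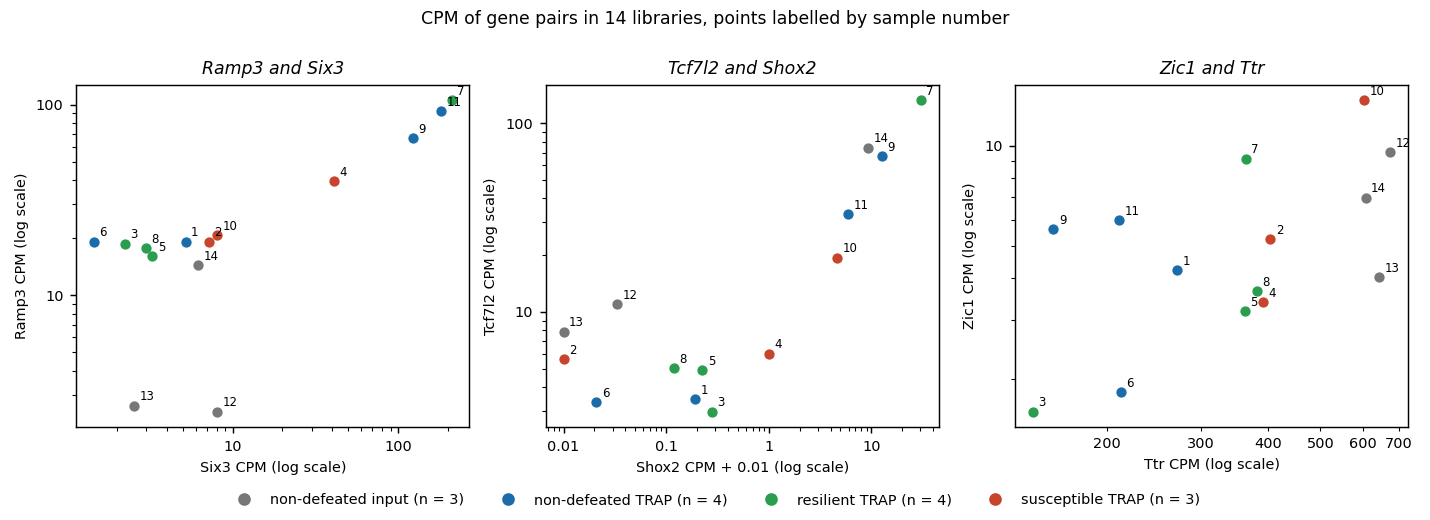
CPM of 3 pairs of genes in the 14 libraries on log axes, with 1 point per library labelled by sample number and colored by group (0.01 CPM was added to Shox2 so that values at 0 can be drawn). Ramp3 and Six3 are both high in libraries 7, 9, 11 and 4, Tcf7l2 and Shox2 in 7, 14, 9, 11 and 10, and Zic1 is highest in 10 and 12.

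A list of 15 other genes of thalamic relay neurons and their progenitors, none of them among the 8, was read in the same libraries. Shox2, a homeobox gene of the relay nuclei, had 30.5 CPM in resilient 7, 12.7 in non-defeated 9, 9.23 in input 14, 5.95 in non-defeated 11 and 4.61 in susceptible 10, and 0 to 0.989 CPM in the other 9 libraries. Gbx2, a homeobox gene needed for thalamic axons, had 6.24 CPM in resilient 7, 5.75 in input 14, 2.72 in non-defeated 9 and 2.11 in non-defeated 11, and 0 to 0.434 CPM elsewhere, susceptible 10 included. Tnnt1, a troponin gene that marks the ventral relay nuclei, had 77.3 CPM in resilient 7, 24.7 in non-defeated 9, 19.7 in input 14, 16.6 in susceptible 10 and 15.5 in non-defeated 11, and 0.868 to 4.45 CPM elsewhere. These genes drew the same line between libraries as Synpo2 did, with susceptible 10 on the high side in Shox2 and Tnnt1 and on the low side in Gbx2.

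Plekhg1, Ntng1, Plcb4, Amotl1, Slitrk6 and Rora were also highest in resilient 7 among TRAP libraries and in input 14 among input. Their lowest levels over the 14 libraries ran from 1.37 CPM for Ntng1 to 45.8 CPM for Rora, except for Slitrk6, which was at 0 in resilient 5 and had 2.06 CPM in resilient 7. Rora, a nuclear receptor of relay neurons that other neurons also make, had 225 CPM in resilient 7 against 107 to 160.3 in the other TRAP libraries. Zic2, Zic4, Zic5 and Adarb1 did not have resilient 7, non-defeated 9 and non-defeated 11 as their 3 highest TRAP libraries, nor did Cacna1g or Tnnt1. Of the 15 genes, 12 were highest in resilient 7 among TRAP and 11 in input 14 among input, against 10.8% and 29.0% of all genes tested. Of the 8 chosen genes these counts were 7 and 7. Input 14 was also the highest input library for 6 of 8 PV interneuron genes, 5 of 6 meningeal genes and 4 of 5 astrocyte genes.

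**Figure D4:**
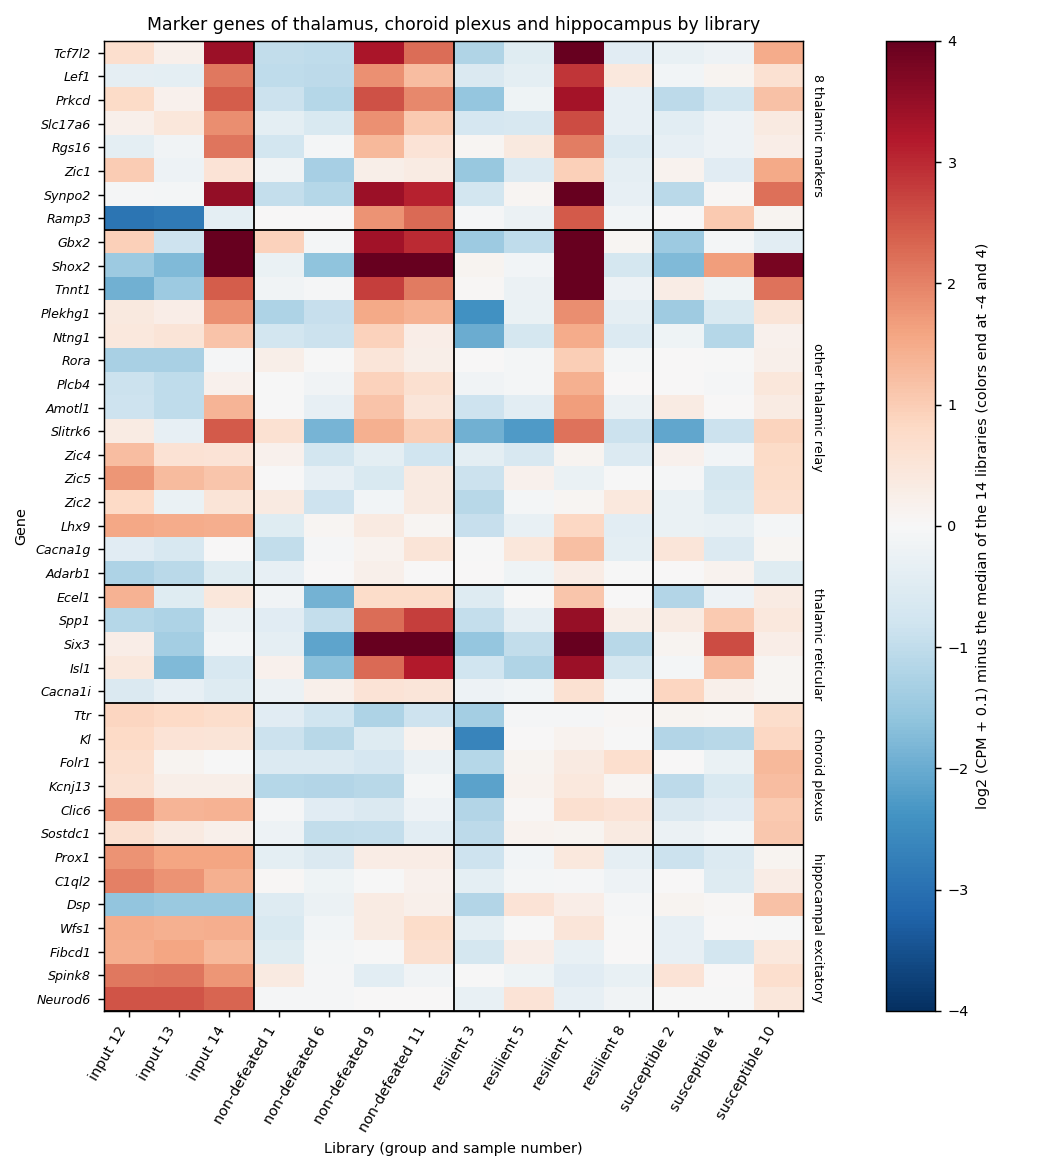
Each cell gives log2 (CPM + 0.1) of a gene in a library minus the median of that gene over the 14 libraries, with genes in rows by list and libraries in columns by group, and colors that end at -4 and 4. Input 14, non-defeated 9 and 11 and resilient 7 are red in most thalamic genes. The input libraries, input 14 included, are also red in most choroid plexus and hippocampal genes, whose levels are mostly higher in input than in TRAP. The hippocampal genes Prox1 and Wfs1 are higher in non-defeated 9 and 11 and resilient 7 than in the other TRAP libraries.

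In non-defeated TRAP against input, 55.0% of all 21298 genes passed an adjusted p under 0.05, and 5 of the 15 other relay genes did. Rora (log2 fold change 0.99, standard error 0.31, adjusted p = 0.0150 in edgeR's quasi-likelihood test) and the RNA-editing enzyme gene Adarb1 (0.88, standard error 0.19, adjusted p = 0.00111) rose. Zic4 fell by 1.24 (adjusted p = 0.00220 in the same edgeR test), Zic5 by 1.52 (adjusted p = 0.00125) and Lhx9 by 1.48 (adjusted p = 0.00109) on the log2 scale. Shox2, Gbx2 and Tnnt1 did not pass, with a log2 fold change of 0.59 for Shox2 (standard error 2.05), -0.64 for Gbx2 (standard error 1.54) and 0.68 for Tnnt1 (standard error 1.29). Without the 5 libraries that Synpo2 set apart, 9 of the 15 passed. The share of all genes that passed in that smaller fit is not given here, so the rise from 5 to 9 is not read as a result about these genes. The median log2 fold change of the 8 chosen genes was -0.21, where that of all genes tested was -0.041.

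The summed level of the 15 genes was 337, 339, 542 and 448 CPM in non-defeated libraries 1, 6, 9 and 11 and 206, 199 and 420 CPM in input libraries 12, 13 and 14. Rora and Adarb1 had the highest levels of the 15 in every library, with 133 and 119 CPM in non-defeated 1. Shox2, Gbx2 and Tnnt1 had 0.181, 0.418 and 3.22 CPM there. The sum and its tests therefore weigh Rora and Adarb1 most, and say little about the genes with low levels. TRAP and input overlapped through input 14, and the difference, 0.66 on the log2 scale, did not pass the exact permutation test (2-sided, p = 0.114, smallest possible 0.0286), beside SDs of 0.33 in TRAP and 0.61 in input. In resilient libraries 3, 5, 7 and 8 the sum was 329.8, 323, 761 and 340.0 CPM and in susceptible libraries 2, 4 and 10 it was 359, 357 and 382 CPM. Against non-defeated TRAP it differed by -0.003 in resilient mice (exact permutation p = 1) and by -0.16 in susceptible mice (exact permutation p = 0.486), and susceptible against resilient mice differed by -0.15 (exact permutation p = 1), each on the log2 scale. Without the 5 libraries the last difference was 0.12 and the difference of susceptible from non-defeated mice 0.084. These 2 values are given without a test, since the libraries were removed by their level of Synpo2 after the values were seen.

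Between stress groups, the 8 genes were followed in the same fits. In resilient against non-defeated TRAP 0% of all genes passed an adjusted p under 0.05 in edgeR's quasi-likelihood test, with 933 genes at an unadjusted p under 0.05, 3 genes called by DESeq2 and 4 by the likelihood ratio test. In susceptible against non-defeated TRAP 0.0376% of all genes passed, and in susceptible against resilient TRAP 1.89%. Of the 15 other relay genes 0 passed in each of the 3 contrasts, under every alternative that was run. The median log2 fold change of the 8 was 0.20 in resilient against non-defeated mice, -0.89 in susceptible against non-defeated mice and -1.11 in susceptible against resilient mice, where all genes had medians of 0.0023, 0.010 and 0.0028. The 3 contrasts share libraries, so these medians are not separate observations.

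Tcf7l2 had the lowest fitted value between susceptible and resilient mice, -1.81 on the log2 scale (standard error 1.39), followed by Prkcd with -1.43 (standard error 1.15) and Synpo2 with -1.36 (standard error 1.45). Zic1 alone of the 8 had a value above 0, 0.76 (standard error 0.57). The low values rested on resilient 7. Without that library the log2 fold change of Tcf7l2 was 1.27, that of Prkcd 0.73 and that of Synpo2 1.37, each the highest of the values with 1 library left out. Without the 5 libraries with Synpo2 above 5 CPM, they were 0.44, -0.32 and -0.12. In susceptible against non-defeated mice the same removal moved Tcf7l2 from -1.36 to 0.78, Lef1 from -0.56 to 1.08, Synpo2 from -1.32 to 0.68 and Ramp3 from -0.90 to 0.62.

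**Figure D5:**
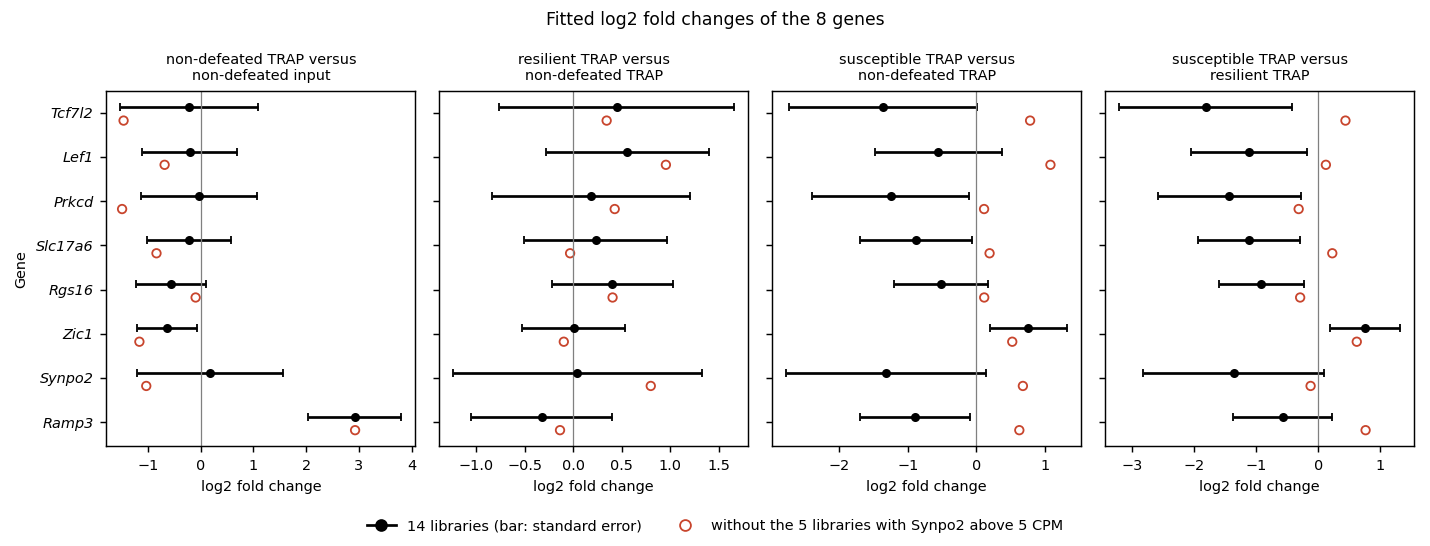
Fitted log2 fold changes of the 8 genes in 4 contrasts, with standard errors as bars (black, 14 libraries), and the values without the 5 libraries with Synpo2 above 5 CPM (open red circles). In susceptible against resilient TRAP, 7 of 8 black points lie below 0, and 4 of these 7 open circles lie above 0 without the 5 libraries.

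The 5 libraries that stood apart all had sample numbers of 7 or more, and the numbers were split there, a split that the labels do not give. Within TRAP numbers 7, 8, 9, 10 and 11 the sum of the 7 genes other than Ramp3 was 622, 53.0, 349, 144 and 221 CPM, without a steady trend. In TRAP libraries numbered 1 to 6, which hold 2 of each stress group, the 7 genes other than Ramp3 summed to 32.3 to 58.0 CPM, and in those numbered 7 to 11 to 53.0 to 622 CPM, with resilient 8 the one low library of the latter. Only 1 of the 5 libraries numbered 7 to 11 is susceptible. The labels do not say what the number stands for. Within numbers 1 to 6 the mean log2 CPM of Tcf7l2 in susceptible minus resilient mice was 0.61 (2 against 2 libraries) and within 7 to 11 it was -0.41 (1 against 2), where all libraries together gave -0.19. For Synpo2 these differences were -0.20, 0.29 and -0.42. Their sign was not the same within and across the numbers, and an exact permutation test of 2 against 2 libraries cannot go below p = 0.333.

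The 8 genes were chosen from their values in these libraries, so their spread within TRAP is a description and not a separate result. The SD of log2 CPM over the 11 TRAP libraries was 2.06 for Synpo2, the 33rd highest of 21298 genes, 1.91 for Tcf7l2 and 1.68 for Prkcd. Of the 8 it was lowest for Rgs16 with 0.825, at rank 2239, where the median of all genes was 0.275. Among the other thalamic genes, Shox2 had the second highest SD of all genes tested, 3.44, Six3 had 2.67 and Gbx2 2.66. Over the 11 TRAP libraries the log2 CPM of Tcf7l2 and Prkcd had a Pearson's r of 0.98 (Spearman's rho 0.89, and r = 0.96 without resilient 7 and non-defeated 9), and the lowest r of a pair was 0.44, between Rgs16 and Zic1. The libraries fall apart into high and low, so r is given only as a description.

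Genes most like the mean of the 8 over the 11 TRAP libraries, each gene's log2 CPM being standardized first, were ranked among all other genes tested by Pearson's r. Plcb4, a phospholipase C of relay neurons, came first (r = 0.98, rho 0.85), with 118 CPM in resilient 7 and 83.4 in non-defeated 9 within a TRAP range that began at 40.2. Adarb2, Cpne9, Vav3, Sox14, B230206H07Rik, Patj, Tnnt1, Zfhx3 and Eps8l2 followed, with r from 0.98 to 0.95, and r from 0.96 to 0.87 for the 10 genes without the 2 farthest libraries. Sox14, a transcription factor of midbrain and pretectal neurons, was at 0 in 8 of the 14 libraries and had 6.06 CPM in resilient 7, 2.39 in non-defeated 9 and 1.68 in input 14. The 213 genes in the top 1% of likeness included 8 of the 15 other relay genes, 4 of 6 midbrain and pretectal genes and 3 of 5 reticular genes, and also Prox1 of the hippocampal list, Rorb of the neocortical, Pou4f1 of the habenular and Rgs4, a relative of Rgs16. The choroid plexus, striatal, endothelial, mural, meningeal, oligodendrocyte, astrocyte, PV interneuron and Wnt lists had 0. For Ramp3 alone, the most alike named protein-coding genes were Mroh4, Cplx3, Nr2f2, Coch, Six3 and Cited1 (r from 0.99 to 0.96). Cplx3, a complexin of transmitter release, had 69.8 CPM in resilient 7, 50.6 in non-defeated 11, 38.1 in non-defeated 9 and 10.8 in susceptible 4, and 2.0 to 3.79 CPM in the other TRAP libraries.

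Among markers of other neighbors of the hippocampus, those of the midbrain and pretectum were high in some of the same libraries: 6 of 6 were highest in resilient 7 among TRAP and 5 of 6 in input 14 among input, where 10.8% and 29.0% of all genes tested were. The 6 genes summed to 35.6 CPM in resilient 7, 14.5 in non-defeated 9 and 13.99 in susceptible 10, and to 2.33 to 6.97 CPM in the other 8 TRAP libraries, with non-defeated 11 at 5.15. Much of this sum was Otx2, which the choroid plexus also makes, but Gata3 had 10.3 CPM in resilient 7, 2.87 in non-defeated 9 and 2.32 in input 14, and 0 to 0.623 CPM elsewhere. The 8 habenular genes summed to 15.4 CPM in resilient 7 and 24.7 in non-defeated 9 within a TRAP range of 12.4 to 24.7. Most of this sum was Nwd2 and Lrrc55, with 8.18 and 4.17 CPM in resilient 7, so it says little about the others. Of the 8, 2 were highest in resilient 7 among TRAP and 4 in input 14 among input. Pou4f1 and Chrna3 were so in both, at low levels, with 0.788 and 1.77 CPM in resilient 7. None had resilient 7, non-defeated 9 and non-defeated 11 as the 3 highest TRAP libraries. The 6 striatal genes summed to 81.0 CPM in resilient 7 and 56.4 in non-defeated 9 within a TRAP range of 56.4 to 105, and the 5 neocortical genes to 105 and 95.0 within 72.6 to 105. Rorb, which the cortex and the thalamus both make, was the neocortical gene that followed, with 38.4 CPM in resilient 7, 22.7 in non-defeated 9 and 14.2 in non-defeated 11 and 5.37 to 9.34 in the other TRAP libraries.

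The hippocampus itself was plain in every sample. The 7 markers of granule and pyramidal cells summed to 523 to 605 CPM in input and 112 to 218 CPM in TRAP. The sum was 218 CPM in susceptible 10, 202.5 in non-defeated 11, 193 in resilient 5, 179 in non-defeated 9 and 170.5 in resilient 7. The remaining TRAP libraries had 112 to 148 CPM. In non-defeated TRAP against input 6 of the 7 fell, and Dsp rose by 1.51 on the log2 scale (adjusted p = 0.00287 in edgeR's quasi-likelihood test). Prox1, a transcription factor of granule cells that other neurons also make, had the TRAP order of Tcf7l2: it had 45.1 CPM in resilient 7, 41.01 in non-defeated 9, 40.8 in non-defeated 11 and 36.1 in susceptible 10, and 18.6 to 31.03 CPM in the other TRAP libraries. In input it was highest in input 12, with 115 CPM. The 8 PV interneuron genes all rose in that contrast, with a median log2 fold change of 2.62. Erbb4, a receptor of PV interneurons, was lowest in resilient 7, with 26.4 CPM against 36.9 to 61.2 in the other TRAP libraries. Of 10 Wnt partners and target genes, Axin2, the standard readout of Wnt signaling, had 3.67 CPM in resilient 7 within a TRAP range of 2.93 to 4.37. Ctnnb1, which encodes beta-catenin, had 372 CPM in non-defeated 9, 362 in resilient 7 and 331 in non-defeated 11, against 180 to 325 in the other TRAP libraries. It was the only 1 of the 10 with these as its 3 highest TRAP libraries. Of the 10 genes, 4 passed in non-defeated TRAP against input (2 higher, 2 lower), where 55.0% of all genes did, and 0 passed in the stress contrasts.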

How the data were processed

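TRAP RNA of 11 hippocampal samples and total RNA of 3 input samples were analysed. The authors deposited raw counts of reads per gene, which they made by fastp trimming and STAR alignment to mm10 (version 2.5.3a in the submitters' processing notes, which also name HTSeq); the annotation they used is not given in the sources used here. From 1 ng of RNA per sample, cDNA was made with a kit that does not mark the strand. Genes were named for 37607 of the 39017 identifiers.

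The 8 genes, the marker lists and the alternatives were chosen with earlier results of these data known. All 14 libraries were fitted in 1 model of 4 groups in R 4.3.3 with edgeR 4.0.16 (TMM factors, filterByExpr at its defaults, leaving 21298 genes, the quasi-likelihood test, 2-sided, with Benjamini-Hochberg adjustment, called at an adjusted p under 0.05). Log2 CPM used a prior count of 2. The steps were tested on simulated data. Summed levels were compared with exact permutation tests over libraries. The named genes were the 8 and Pvalb, both lists of thalamic genes, the 10 genes most like the mean of the 8 over TRAP libraries and, of other lists, genes that passed or carried a point; Slc17a7, Prkca, Ramp1, Ramp2, Ttr, Rorb, Gata3, Erbb4, Axin2, Ctnnb1, Cplx3, Prox1, Wfs1, Pou4f1, Rgs4 and the other genes most like Ramp3 were named after their values were seen. Gene lengths and positions are from GENCODE vM21. Each sample is 1 mouse, and the precision of a value was limited by the spread between mice, not by depth. No sample number is shared between groups. Alternatives were DESeq2 1.42.0, the likelihood ratio test, RLE size factors, total counts, no filter, a ratio to Pvalb, TRAP libraries only, the sample number as a covariate and leaving out each library; after the data were seen, the mean of the 8 genes as a covariate and the removal of 5 libraries were added. 1 gene of the lists is not reported here.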

Additional observations from a re-analysis of the deposited data

Results flagged for a closer look

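In groups of 4 libraries, the gap between the most extreme library and the rest, as a share of the range of the group, was compared with Dixon's 95% critical value, in 22 tests of a gene or summed level in a group. Of the 22, 9 passed. Chance passes about 1 in 20 groups, but this rate does not apply to 6 of the 9, which are on genes chosen from these same values. Nor is it a guide for the summed levels, whose lists were chosen with earlier results of these data known. The gaps were taken in CPM, not in log2 CPM. Resilient library 7 was the high extreme of its group in 8 of them. It had 132 CPM in Tcf7l2, 28.8 in Lef1, 340.2 in Prkcd, 40.9 in Slc17a6, 38.0 in Synpo2 and 105 in Ramp3, and the 8 genes had been chosen from these values. It also had 761 CPM summed over the 15 other relay genes and 323 CPM summed over the 5 reticular genes, 0.961 and 0.981 of the range above the next library. The remaining one was Pvalb, of which non-defeated library 9 had 1265 CPM, the low extreme of its group. Rgs16 and Zic1 in resilient mice did not pass this limit. In non-defeated mice, where libraries 9 and 11 were both high in the thalamic genes, the same gap cannot single out either.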

How the results depend on the processing

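The groups share no sample number. No paired analysis was run. The labels do not say whether an input sample and a non-defeated TRAP sample came from the same mouse, and the tests treated them as separate. The number of genes called between non-defeated TRAP and input was 11719 and ran from 10036 to 12043 with each library left out. Between resilient and non-defeated TRAP it was 0, stayed 0 with each library left out, and was 3 with DESeq2 and 4 with the likelihood ratio test. Between susceptible and non-defeated TRAP it was 8, and 0 to 19 with a library left out (0 without non-defeated 9 or 11, input 12 or any susceptible library). It was 189 with the likelihood ratio test, 402 with DESeq2, 13 with RLE size factors, and 0 with the TRAP libraries only, with the sample number or the 8 genes as a covariate, and without the 5 libraries high in Synpo2. Between susceptible and resilient TRAP it was 403, and 6 (without resilient 8) to 1110 (without susceptible 10), with 12 without resilient 7 and 7 without susceptible 2. It was 1099 with the likelihood ratio test, 1651 with DESeq2, 126 with no filter, 1 with the TRAP libraries only, 1146 with the sample number as a covariate and 821 without the 5 libraries. The cause was not tested.

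Of the other relay genes, 5 were called between non-defeated TRAP and input, 4 to 6 with a library left out and 9 without the 5 libraries. The share of all genes called in the fit without the 5 libraries is not given beside the 9. In the 3 stress contrasts 0 were called, also with each library left out. The summed level of these genes between non-defeated TRAP and input (0.66 on the log2 scale) was 0.48 to 1.01 with a library left out, and as a ratio to Pvalb it was -5.21 (exact permutation p = 0.0286, the smallest possible), since Pvalb itself rises in TRAP. Between resilient and non-defeated mice (-0.003) it was -0.30 to 0.13, and 0.20 as a ratio to Pvalb. Between susceptible and non-defeated mice (-0.16) it was -0.25 to -0.021, and 0.084 without the 5 libraries. Between susceptible and resilient mice (-0.15) it was -0.27 to 0.15, with 0.15 without resilient 7, and 0.12 without the 5 libraries. Of 128 log2 fold changes of the 8 genes under the other alternatives, 16 moved by more than the spread, 8 of them as ratios to Pvalb in the input contrast and 8 in susceptible mice without the 5 libraries.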
